A study of Homo sapiens with 12 samples.

Results

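The lysosome and autophagy genes are 53 genes chosen by symbol and function, of 58735 gene rows in the deposited count table. They comprise 26 lysosome genes, 24 autophagy genes and the 3 transcription factors TFEB, TFE3 and MITF. The lysosome genes are 5 membrane proteins, 10 hydrolases and their partners, and 11 subunits of the V-ATPase. The autophagy genes are 2 receptors, 5 members of the ATG8 family, 6 genes of ATG8 conjugation, 7 of initiation and 4 of phagophore growth.

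The lysosome is the acidic compartment in which cells degrade proteins, lipids and glycans. Autophagy delivers cytoplasm to it: an initiation complex starts a membrane sac (the phagophore), proteins of the ATG8 family are coupled to the lipids of that sac, and receptors load cargo by binding them. The kinase complex mTORC1 phosphorylates 4EBP1, which otherwise represses translation by binding the cap-binding protein eIF4E. The same complex restrains autophagy and keeps TFEB, the main activator of lysosome genes, out of the nucleus.

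The libraries came from 293T4A cells, a human embryonic kidney line transduced with a doxycycline-inducible 4EBP1 in which T37, T46, S65 and T70 are alanine (4EBP1-4A). Transduced cells had been sorted for GFP, and all groups carried the construct. Cells received DMSO or doxycycline at 2 mg/mL, for 12 h by the labels and methods and for 2 h by the series text, then cycloheximide. The results text of the study names another, longer time. RNA-seq of total RNA and Ribo-seq, which counts the mRNA fragments that ribosomes protect, gave 3 libraries of each assay per treatment. The study calls its replicates biological, but nothing says that they came from separate cultures, so p-values measure the spread between these libraries, which may be technical.

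Doxycycline replicate 3 stood apart among the RNA-seq libraries. It held 21687906 reads on genes, 5.94% of its reads, against 45887231 to 57824136 (19.7% to 30.8%) in the other 5. Mitochondrial genes took 5.76% of its reads on genes against 11.8% to 15.8% in the others. Results are therefore given with and without it. In such bulk RNA, fewer cells with an mRNA and less of it per cell cannot be told apart. EIF4EBP1, the induced gene, was higher in all 3 doxycycline libraries (273.6 ± 14.3 CPM, SD, n = 3) than in all DMSO libraries (158.4 ± 8.29 CPM, n = 3), where CPM is the usual scaling of read counts to the library's reads on genes, with TMM factors. Its exact permutation p (two-sided) was 0.1, the smallest that 3 against 3 allows. The 5 markers of 293T cells (VIM, NEFL, NEFM, LIN28B and PAX2) were all detected, with summed levels of 1040 to 1115 CPM in DMSO and 1114 to 1391 CPM in doxycycline. The 6 white blood cell markers summed to 1.99 to 2.26 CPM in DMSO and 1.90 to 2.73 CPM in doxycycline. The 5 measured skin markers summed to 5.09 to 5.67 CPM and 2.48 to 4.97 CPM, with KRT5 and KRT14 at 0 in all libraries.

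TFEB, TFE3 and MITF bind the palindrome TCACGTGA, the inner 8 bases of the CLEAR element, which recurs in promoters of lysosome genes. The outer bases of that element were not required here. RefSeq promoters of GRCh38.p14, from 250 bases before to 50 after the start site, were at hand for 42 of the 53 genes. Both strands of this 8-letter motif read the same, and it contains the E-box core CACGTG. It was present in 6 of the 42 promoters (14.3%), against 321 of 27305 genes with a promoter (1.18%). By group, 5 of 18 lysosome genes, 1 of 21 autophagy genes and 0 of the 3 transcription factors held it. The core CACGTG was in 12 of the 42 (28.6%), against 8.77% of all promoters. The windows that hold the palindrome are shown because they let the members that share it be compared in the results. The palindrome is in capitals with 10 bases on either side, and each window is read on the strand of its gene:
LAMP1, chr13:113297200-113297227, + strand: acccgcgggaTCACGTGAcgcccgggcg
LAMP1, chr13:113297227-113297254, + strand: gcggcgcagcTCACGTGAcaagcgctgc
MCOLN1, chr19:7522572-7522599, + strand: ccagaggcggTCACGTGAggggctctgg
MCOLN1, chr19:7522599-7522626, + strand: ggctaccgggTCACGTGAccgaggcaca
CTSA, chr20:45891299-45891326, + strand: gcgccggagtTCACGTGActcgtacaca
GAA, chr17:80101494-80101521, + strand: ggaggccgcgTCACGTGAcccaccgcgg
GAA, chr17:80101539-80101566, + strand: ctcccgccggTCACGTGAcccgcctctg
ATP6V0D1, chr16:67481200-67481227, - strand: ccccttatggTCACGTGAggcgcttgcg
ATG3, chr3:112561941-112561968, - strand: gagtctagtgTCACGTGAggccccggtg

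LAMP1, MCOLN1 and GAA held 2 copies each, and the other 3 genes held 1. A match is a description of the letters and not of binding.

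To compare levels between genes, CPM was divided by the length in kilobases of all annotated exons of a gene merged. In DMSO the highest level was that of PSAP, the precursor of the saposins that activate lipid hydrolases, at 120.9 ± 2.19 CPM per kb (SD, n = 3). ATP6V1A, the catalytic subunit of the V-ATPase, followed at 38.2 ± 1.83, and the tetraspanin CD63 at 32.8 ± 1.75 CPM per kb. The next pair, the V-ATPase genes ATP6V0B (28.4 ± 1.48) and ATP6V1E1 (27.9 ± 0.451 CPM per kb), did not differ beyond their spread. Among autophagy genes, the receptor SQSTM1 (24.1 ± 0.586) and the initiation scaffold RB1CC1 (23.7 ± 1.32 CPM per kb) were highest and did not differ beyond their spread.

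At the low end, TFEB was at 0.465 ± 0.0189 CPM per kb, while its relatives MITF and TFE3 were at 1.87 ± 0.0632 and 8.45 ± 0.482. CTSZ, a cathepsin, was at 0.159 ± 0.0174, and MAP1LC3A, one of the LC3 genes of the ATG8 family, at 0.0482 ± 0.0302 CPM per kb. MAP1LC3A had 5, 3 and 1 reads in the DMSO libraries and 4, 2 and 2 in the doxycycline libraries, so it was below the filter of 10 reads in 3 libraries and was not tested. ATP6V0C, the ring subunit of the proton channel, was at 0.366 ± 0.0844 CPM per kb, but 76.3% of its exon bases belong to another gene too, which a count of reads on 1 gene can lose. GABARAP (48.2%) and CTSD (48.0%) also share exon bases, and their levels are uncertain for the same reason.

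The order of levels depended on the length used. Per kb of the canonical transcript, PSAP was again highest in DMSO (137.0 ± 2.48 CPM per kb), but GLA (108.7 ± 5.75), ATP6V0B (93.2 ± 4.84) and CD63 (77.7 ± 4.14) came next and ATP6V1A was ninth of the 53 (52.8 ± 2.53). Of the autophagy genes SQSTM1 (63.9 ± 1.56) and GABARAPL2 (59.8 ± 1.90) were then highest, and RB1CC1 was at 27.2 ± 1.51. At the low end on this scale were CTSZ (2.06 ± 0.225), GABARAP (1.89 ± 0.231), TFEB (1.34 ± 0.0544), ATP6V0C (0.474 ± 0.109) and MAP1LC3A (0.0576 ± 0.0361).

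**Figure D1:**
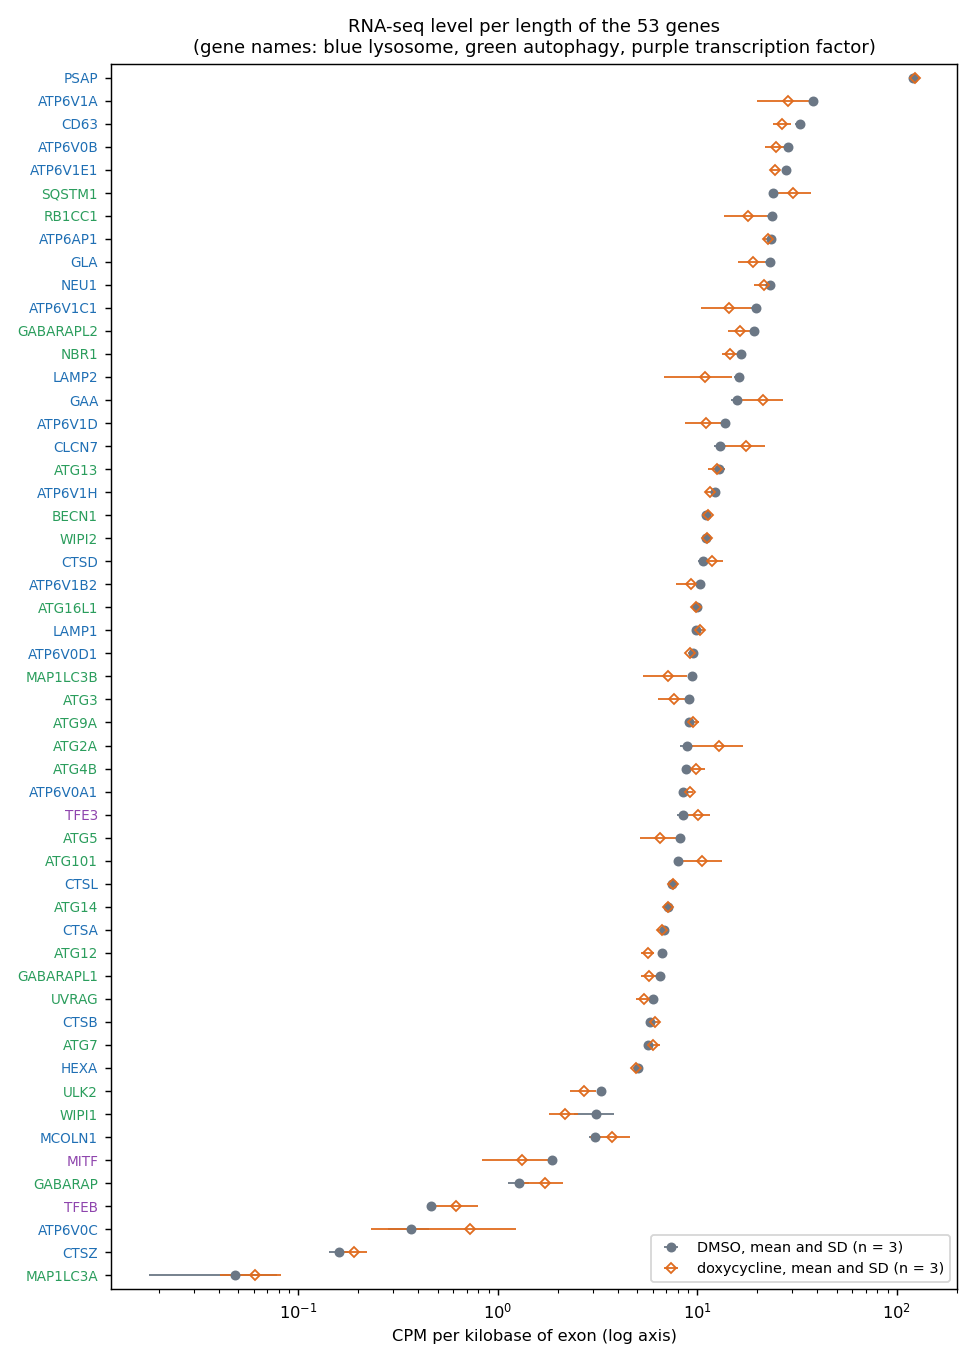
Mean RNA-seq level of the 53 genes in CPM per kb of exon (log axis) for DMSO (filled circles) and doxycycline (open diamonds), with the SD of 3 libraries as bars. PSAP is highest at 120.9 CPM per kb and MAP1LC3A lowest at 0.0482 in DMSO.

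Whether 4EBP1-4A changed these mRNAs was asked with edgeR's quasi-likelihood F-test on all genes, adjusted after Benjamini-Hochberg (the adjusted p below). Of 20552 genes tested with the 6 libraries, 0 were called higher and 0 lower at 0.05 (0% of genes in either direction), and so 0 of the 52 lysosome and autophagy genes tested. The lowest adjusted p among the 52 was 0.303, which was also the lowest over all genes tested. EIF4EBP1, the induced gene, had this adjusted p too (log2 change 0.79, SE 0.09) and was not called. The lack of a call in this fit therefore does not show the lack of a change. Without adjustment, 2189 genes (10.7%) were higher and 884 (4.3%) lower at 0.05, and 3 and 2 of the 52. Over all genes, DESeq2's Wald test called 1 higher and 2 lower. The doxycycline libraries all lay above the DMSO libraries for 8 of the 53 genes and below them for 17. Of all genes tested, 19.7% and 18.9% did so, and these shares are the background for the groups without overlap named below. Fitted log2 changes ran from -0.57 to 0.87. Their median was -0.043 over the 52, -0.046 over lysosome genes and -0.031 over autophagy genes, against 0.0029 over all genes tested; with library totals in place of TMM, the lysosome and autophagy medians turned to 0.054 and 0.075, against 0.0967 over all genes. The lysosome and autophagy medians differed by -0.016 with all libraries and by 0.028 without doxycycline replicate 3.

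Doxycycline replicate 3 was the highest or the lowest of the 6 libraries for 46 of the 52 genes, and it lay farther from the DMSO mean than both other doxycycline libraries for 44. Without it, 20459 genes were tested, of which 769 (3.76%) were called higher and 673 (3.29%) lower. Among the lysosome and autophagy genes 1 was then higher and 2 lower: ATG2A rose, and LAMP2 and ATP6V1C1 fell. These shares, 1 and 2 of 52, are near the background.

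None of the transcription factors passed the test with or without replicate 3. TFEB was at 2.99, 3.16 and 3.24 CPM in DMSO replicates 1, 2 and 3, and at 3.60, 3.38 and 5.54 CPM in doxycycline replicates 1, 2 and 3. The groups did not overlap, and replicate 3 stood well above the others. TFEB's log2 change was 0.40 (SE 0.20, edgeR adjusted p 0.305) with all libraries and 0.16 (SE 0.12, adjusted p 0.448) without replicate 3. TFE3, the relative with the highest level here, was at 33.5, 37.5 and 35.6 CPM in DMSO and 38.0, 39.0 and 49.8 CPM in doxycycline, again without overlap. MITF, best known from melanocytes, was at 13.9, 13.4 and 14.3 CPM in DMSO and lower in every doxycycline library, at 12.2, 11.7 and 5.67 CPM. Without replicate 3 the log2 changes of TFE3 and MITF were 0.11 (adjusted p 0.355) and -0.21 (adjusted p 0.131).

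Of the membrane proteins, LAMP2, a major glycoprotein of the lysosomal membrane that is needed for fusion and for chaperone-mediated autophagy, had the lowest log2 change. Its level was 182.2, 162.9 and 172.7 CPM in DMSO and 151.1, 129.2 and 67.3 CPM in doxycycline, with no overlap. Without replicate 3, it fell by 0.30 on the log2 scale (SE 0.07, edgeR adjusted p 0.0254). With all libraries the log2 change was -0.57 (SE 0.27), larger in size but with adjusted p 0.303. Its close relative LAMP1, with the palindrome in its promoter, overlapped between groups and had a log2 change of 0.068 (SE 0.09). CD63 was at 81.8, 74.6 and 82.1 CPM in DMSO and 69.8, 67.2 and 56.9 CPM in doxycycline, every doxycycline value below every DMSO value. The chloride exchanger CLCN7, which helps to acidify the lysosome, was higher in every doxycycline library, at 117.9, 134.1 and 186.0 CPM against 99.8, 114.7 and 110.1 CPM. Neither CD63 (adjusted p 0.0585) nor CLCN7 (adjusted p 0.0703) passed the test without replicate 3.

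The hydrolases showed 0 calls in either fit. GAA, which degrades glycogen, was at 77.3, 87.0 and 84.7 CPM in DMSO and 91.5, 100.4 and 146.5 CPM in doxycycline. GLA, which removes galactose from glycolipids, was at 150.6, 135.5 and 143.7 CPM in DMSO and 129.6, 127.1 and 96.2 CPM in doxycycline. GAA thus lay above and GLA below the DMSO libraries without overlap, 1 of the 10 in each direction. Over all genes tested, 19.7% lay above and 18.9% below in this way. The other 8, the cathepsin genes CTSB, CTSD, CTSL and CTSZ among them, overlapped. Log2 changes of the 10 ran from -0.28 to 0.44, with 6 above 0 and 4 below. With library totals 9 were above 0, where 40.5% of all genes tested were below 0.

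The V-ATPase pumps protons into the lysosome. Of its 11 genes, 9 had a log2 change below 0 and 2 above, with a median of -0.15, where 49.7% of all genes tested were below 0. Without replicate 3 the split was the same and the median -0.040, while with library totals in the 6 libraries 5 were above 0 and 6 below. ATP6V1C1, a subunit of the soluble V1 sector, was at 121.7, 109.5 and 113.6 CPM in DMSO and 101.1, 95.3 and 57.4 CPM in doxycycline. It fell by 0.23 on the log2 scale without replicate 3 (SE 0.07, edgeR adjusted p 0.0458). The catalytic subunit ATP6V1A had 254.0, 231.0 and 240.3 CPM in DMSO and 222.3, 200.2 and 119.7 CPM in doxycycline, and its adjusted p without replicate 3 was 0.0797. ATP6V1D, of the central stalk, had 62.4, 55.3 and 58.1 CPM and then 54.0, 50.7 and 35.7 CPM. All 3 genes were lower in every doxycycline library. So were ATP6V1B2 and ATP6V1E1, which makes 5 of the 11, while ATP6V0A1 was higher in every one and the other 5 overlapped. Of all genes tested, 18.9% were lower and 19.7% higher in every doxycycline library. ATP6V0C had the highest fitted log2 change of the 52, 0.87 (SE 0.46, adjusted p 0.308), on 0.432, 0.655 and 0.468 CPM against 0.590, 0.663 and 1.85 CPM, which overlap. Its 0.27 (SE 0.27) without replicate 3 rests on few reads.

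Of the receptors, SQSTM1 (p62), which carries ubiquitinated cargo and is itself degraded by autophagy, was at 180.7, 186.1 and 177.4 CPM in DMSO and 187.6, 205.2 and 286.4 CPM in doxycycline. NBR1, a receptor of similar build, was at 138.0, 139.6 and 139.4 CPM and then 131.9, 127.2 and 110.8 CPM. SQSTM1 lay above and NBR1 below the DMSO libraries, both without overlap, as 19.7% and 18.9% of all genes tested did. Neither passed the test (without replicate 3, log2 0.11 with adjusted p 0.267 and -0.10 with adjusted p 0.307).

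The ATG8 family genes encode the proteins coupled to the phagophore membrane. MAP1LC3B (LC3B), the usual marker of autophagosomes, was at 47.2, 46.5 and 48.3 CPM in DMSO and 42.0, 40.1 and 25.6 CPM in doxycycline. GABARAPL2 was at 58.9, 56.1 and 59.6 CPM and then 55.2, 50.8 and 42.2 CPM, and GABARAPL1 at 25.7, 25.6 and 28.3 CPM and then 25.4, 23.0 and 21.4 CPM. These 3, of 4 tested in the family, were lower in every doxycycline library, as 18.9% of all genes tested were. Their log2 changes were -0.40, -0.24 and -0.19 with all libraries and -0.21, -0.14 and -0.13 without replicate 3. Their adjusted p-values were 0.303 to 0.327 and 0.0777 to 0.324. GABARAP, at 2.32, 2.32 and 2.85 CPM in DMSO and 2.99, 2.83 and 4.24 CPM in doxycycline, overlapped.

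Among the conjugation genes, ATG12 and ATG5 encode the partners of the conjugate that helps to lipidate ATG8 proteins. ATG12 was at 60.7, 57.5 and 59.3 CPM in DMSO and 54.1, 50.2 and 46.2 CPM in doxycycline, and ATG5 at 49.3, 45.7 and 45.0 CPM and then 40.8, 41.8 and 28.1 CPM. Both were lower in every doxycycline library, as 18.9% of all genes tested were, while the other 4 (ATG3, ATG4B, ATG7 and ATG16L1) overlapped. Neither passed the test without replicate 3 (log2 -0.18 for each, adjusted p 0.106 and 0.135).

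The initiation genes included members on both sides. ATG101, a component of the ULK complex, was higher in each doxycycline library, at 26.8, 30.3 and 43.6 CPM against 24.7, 25.4 and 26.5 CPM. RB1CC1 (FIP200), the scaffold of that complex, was lower, at 164.3, 146.5 and 99.9 CPM against 191.5, 171.6 and 179.3 CPM. The kinase ULK2 was lower too, at 29.3, 28.6 and 22.1 CPM against 33.3, 32.6 and 31.9 CPM. So 1 complex held genes on either side of the DMSO values, where 19.7% of all genes tested lay above and 18.9% below. None of the 3 passed the test without replicate 3 (adjusted p 0.209, 0.0595 and 0.15). BECN1, ATG13, ATG14 and UVRAG overlapped, with log2 changes from -0.13 to 0.03.

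ATG2A, a lipid transfer protein that feeds the growing phagophore, was at 63.4, 73.5 and 71.9 CPM in DMSO and 79.2, 85.6 and 137.5 CPM in doxycycline, with no overlap. Without replicate 3 it rose by 0.24 on the log2 scale (SE 0.07), with an edgeR adjusted p of 0.04999 that lies just inside the threshold. WIPI1, which binds the phosphoinositide of the phagophore, varied widely between DMSO libraries, at 8.42, 10.2 and 13.1 CPM, and was at 8.72, 6.36 and 7.01 CPM in doxycycline. Its groups overlapped (log2 -0.52, SE 0.20, adjusted p 0.303), and the ATG9A and WIPI2 groups overlapped as well.

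The calls made without replicate 3 also rested on single libraries. Over the alternatives to this fit, the edgeR, DESeq2 or limma adjusted p ran from 0.000523 to 0.447 for LAMP2, from 0.00235 to 0.458 for ATP6V1C1 and from 0.0014 to 0.626 for ATG2A. Leaving out a further doxycycline library leaves 1 in that group. Such fits are among these alternatives, but their calls are not given. Without DMSO replicate 1 only WIPI1 was called (lower), where 227 of 20002 genes were higher and 222 lower. Without DMSO replicate 3 only LAMP2 was, where 445 of 20109 genes were higher and 311 lower. Without DMSO replicate 2, 3 genes were higher (ATG2A, CLCN7 and GAA) and 6 lower, where 1483 of 19984 genes were higher and 1471 lower.

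**Figure D2:**
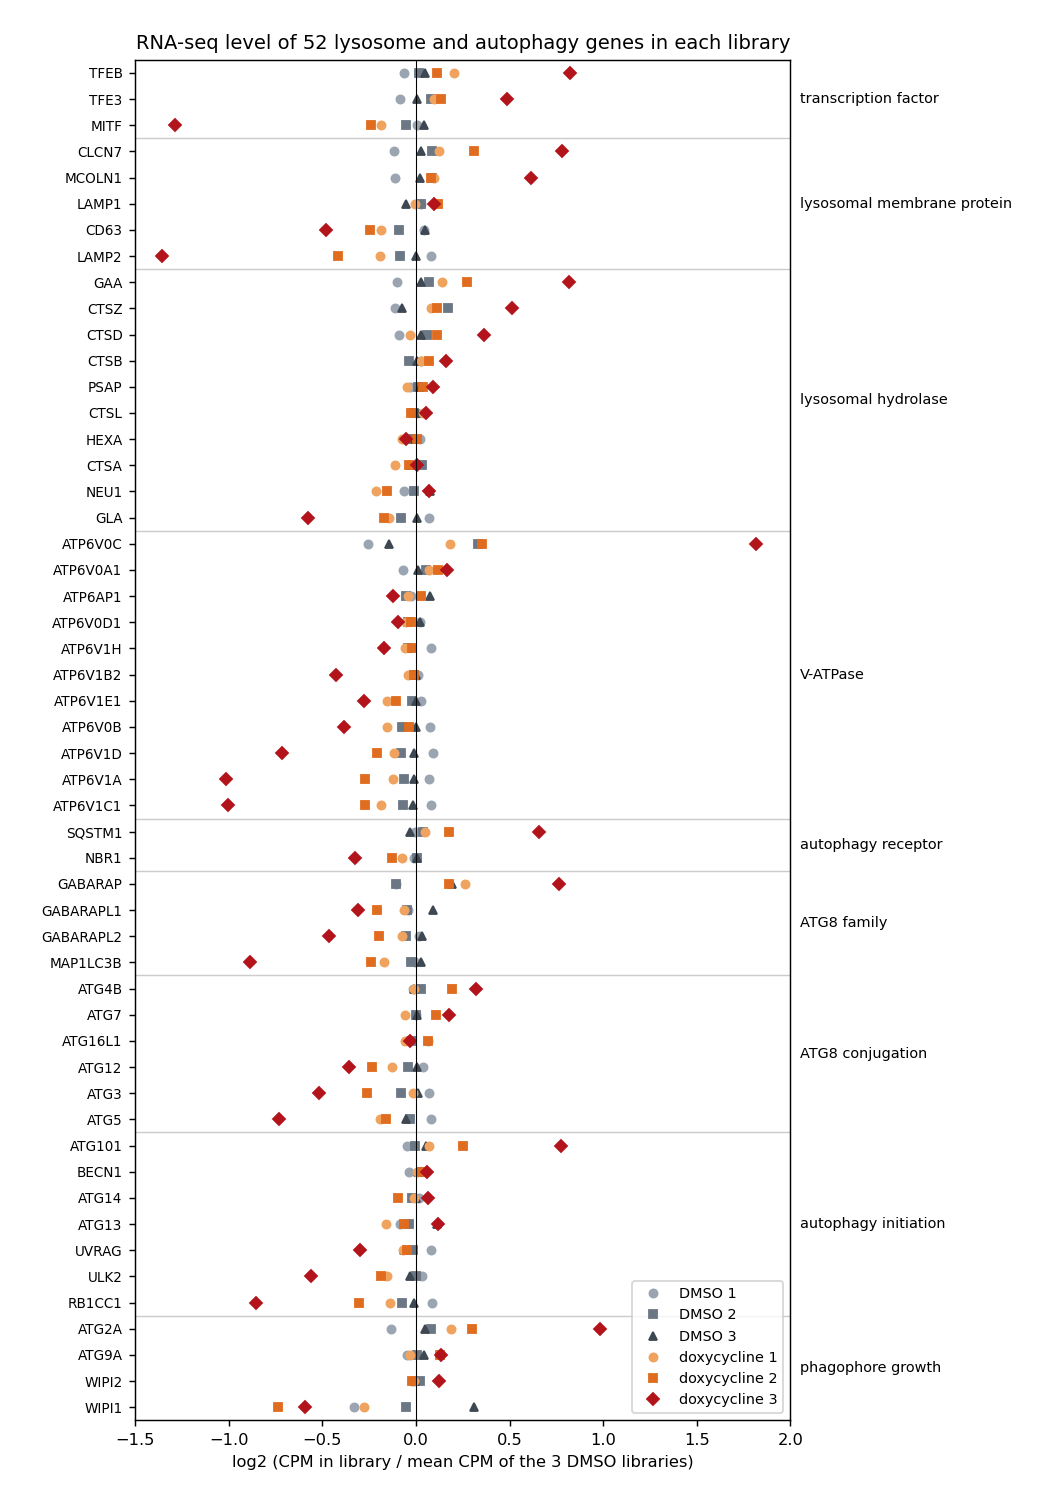
RNA-seq level of the 52 genes tested in each library, as the log2 ratio to the mean of the 3 DMSO libraries (0.01 CPM added to both), grouped by role. Doxycycline replicate 3 (red diamonds) is the highest or the lowest library for 46 of the 52 genes, while replicates 1 and 2 (orange) lie nearer to the DMSO libraries (grey).

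The changes of these genes went with the base composition of their mRNAs. Across the 52 genes, Spearman's rho between the GC content of the canonical transcript (35.98% to 64.76%) and the log2 ratio to the DMSO mean was 0.64 in doxycycline replicate 1, 0.79 in replicate 2 and 0.83 in replicate 3. Between DMSO libraries, which had the same treatment, rho was 0.73 for replicate 2 over 1, 0.59 for 3 over 1 and -0.40 for 3 over 2, where the sign depends on which library is divided by which. Genes are not independent replicates, and the ratios in doxycycline share the DMSO mean, so these are descriptions. Over 20396 genes tested that have a GC content, rho was 0.37, 0.57 and 0.70 in the doxycycline libraries and 0.42, 0.29 and -0.19 in the same DMSO pairs. Transcript length showed little relation (rho of -0.13, -0.086 and -0.092 in the doxycycline libraries).

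Of the 28 genes with a GC content of 50% or more, 19 had a log2 change above 0, with a median of 0.082. Of the 24 genes under 50%, 21 were below 0, with a median of -0.24. Without replicate 3 these medians were 0.050 and -0.15. LAMP2 (36.0% GC), ATP6V1C1 (39.7%), ATP6V1A (40.5%), MITF (41.2%) and RB1CC1 (37.6%) were at the low end of both GC content and change. GAA (64.8%), TFEB (64.7%), ATG2A (63.9%) and CLCN7 (63.9%) were at the high end. These genes are examples, and others departed from the trend. WIPI1 (49.1%) had a log2 change of -0.52 and GABARAP (48.8%) of 0.41, while ATG12 (36.1%) had only -0.24 and CTSD (63.6%) 0.16.

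**Figure D3:**
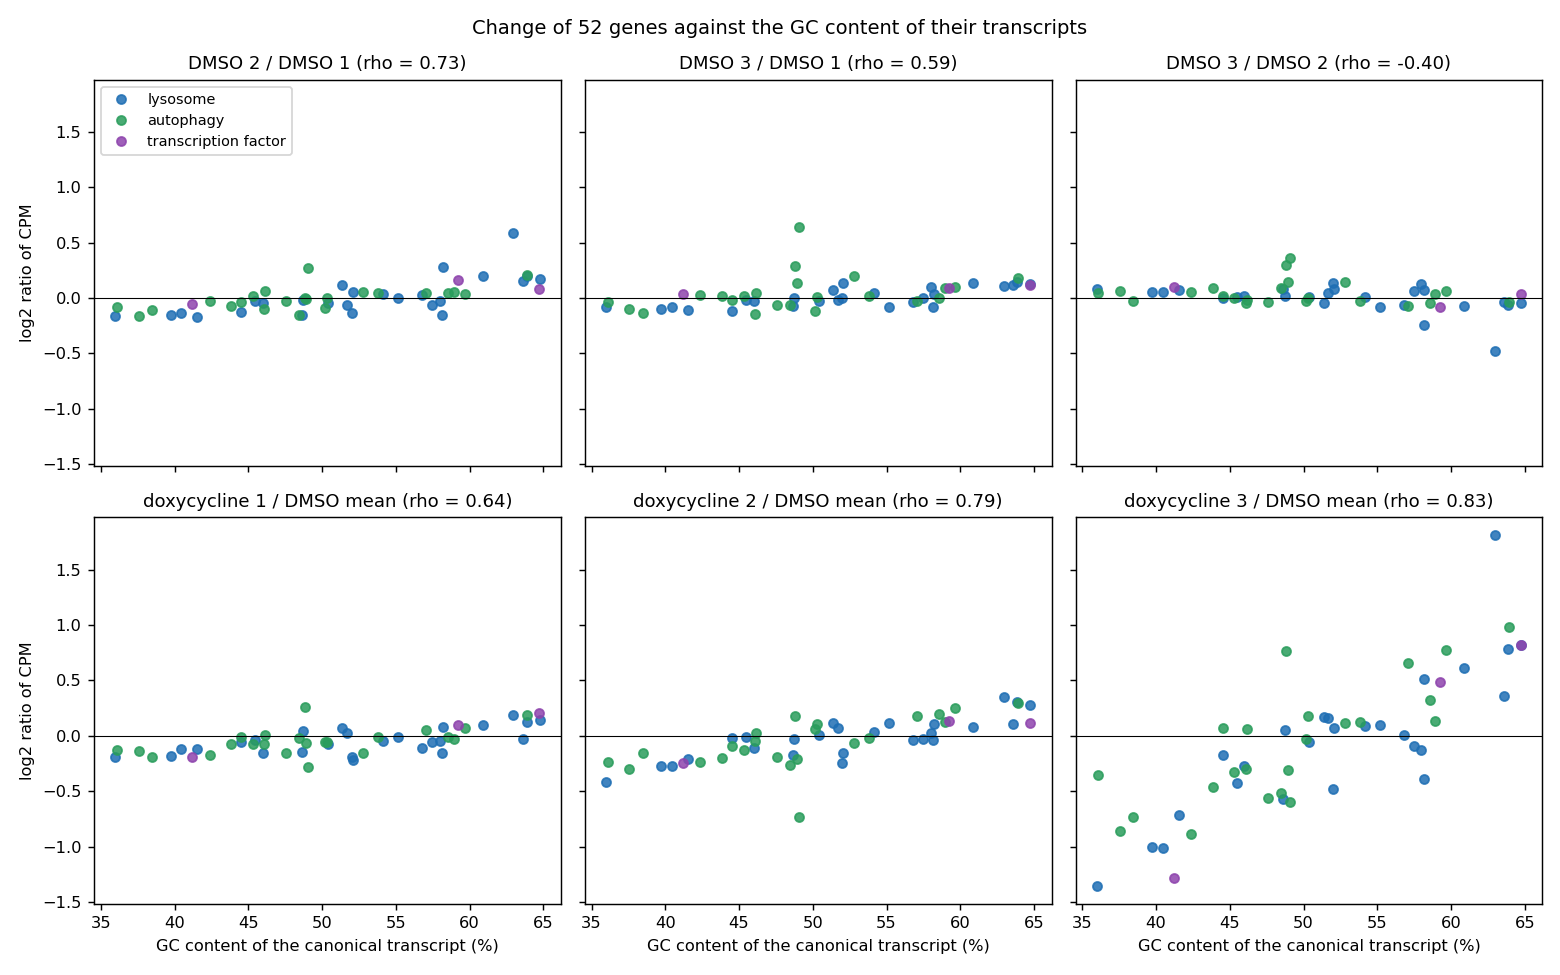
Log2 ratio of CPM (vertical axis) against the GC content of the canonical transcript in percent for the 52 genes, for the 3 pairs of DMSO libraries (top) and each doxycycline library over the DMSO mean (bottom), with Spearman's rho above each panel. The correlation is 0.64 to 0.83 in the bottom panels, and 0.73, 0.59 and -0.40 in the top ones.

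The fit was repeated with the smooth trend of each library on GC content taken out (a lowess curve, added after the data were seen). With all 6 libraries, 0 genes were called higher and 0 lower (0%), with 1812 higher and 1497 lower at an unadjusted p under 0.05. Without replicate 3, 405 genes (1.98%) were higher and 402 (1.96%) lower, and rho between GC content and change over the 52 genes was 0.023. The calls of LAMP2 (log2 -0.087, adjusted p 0.241), ATP6V1C1 (-0.088, adjusted p 0.24) and ATG2A (0.044, adjusted p 0.625) were lost. In their place 4 lysosome genes were called lower and 0 of the 52 higher. CD63 had a log2 change of -0.27 (SE 0.05, edgeR adjusted p 0.0205), NEU1, a sialidase, -0.24 (SE 0.04, adjusted p 0.0151), ATP6V0B -0.23 (SE 0.06, adjusted p 0.0453), and CTSA, the protective protein that holds NEU1 in its complex, -0.19 (SE 0.05, adjusted p 0.0368). In CPM before correction, NEU1 was at 106.3, 110.2 and 117.0 in DMSO and 95.8, 99.9 and 116.8 in doxycycline, so that replicate 3 lay among the DMSO values. CTSA was at 59.2, 60.4 and 57.9 CPM and then 54.8, 57.6 and 59.4 CPM, and ATP6V0B at 96.8, 87.3 and 91.8 CPM and then 82.6, 89.7 and 70.3 CPM, both overlapping.

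After that correction 21 of 26 lysosome genes had a log2 change below 0, and 17 of 23 autophagy genes, where 50.5% of all genes tested did. All 10 hydrolases were among them, but GAA, CTSL and CTSB lay next to 0 (-0.0022, -0.0047 and -0.0051, with SE 0.04, 0.05 and 0.04). The lysosome and autophagy medians were -0.073 and -0.037, against -0.0015 over all genes. With all 6 libraries the counts were 22 of 26 lysosome genes, 9 of the 10 hydrolases among them, and 14 of 23 autophagy genes. TFEB and TFE3 turned from above to below 0 (-0.050 and -0.028 without replicate 3), as GAA did (-0.0022). The calls depended on the libraries. Without DMSO replicate 1 in addition they were NEU1 and WIPI1, where 128 of 20002 genes were higher and 159 lower. Without DMSO replicate 3 the calls were CD63, CTSA and NEU1, where 176 of 20109 genes were higher and 166 lower. Without DMSO replicate 2 there were 8, all lower, where 600 of 19984 genes were higher and 673 lower. Leaving out a further doxycycline library leaves 1 in that group, so its calls are not given. The part of RNA quality or library preparation in these changes was not tested.

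**Figure D4:**
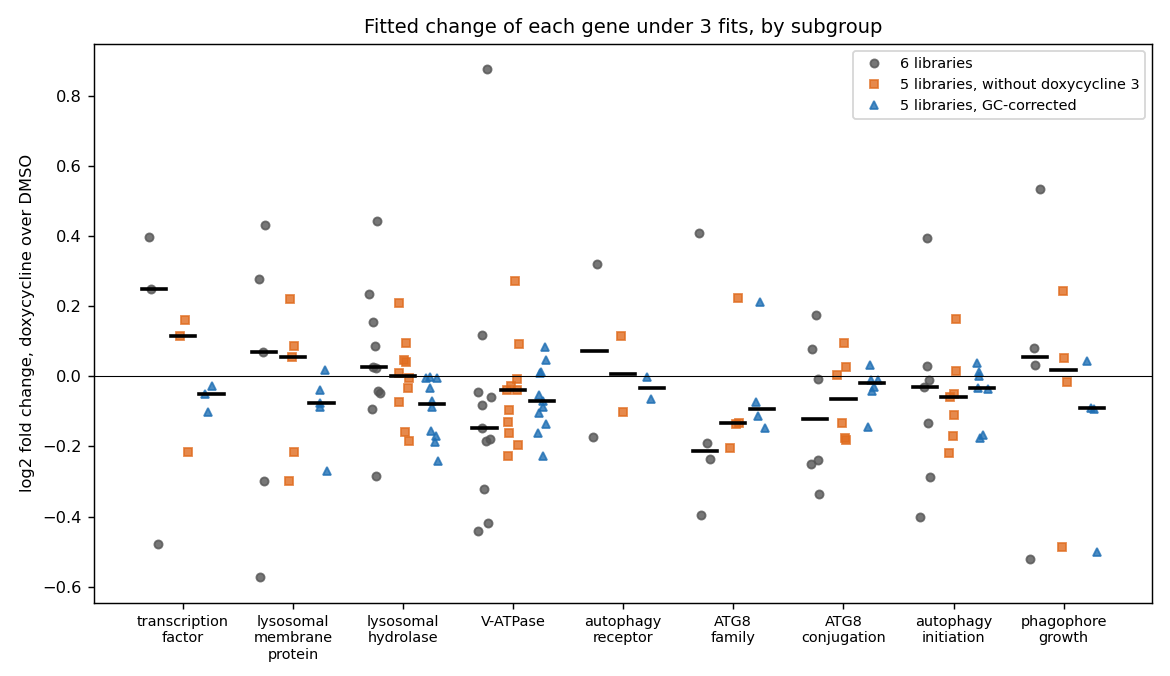
Fitted log2 fold change (doxycycline over DMSO) of each of the 52 genes by role, with 6 libraries (grey circles), without doxycycline replicate 3 (orange squares) and without it after the GC correction (blue triangles). Black bars are medians of a role. The spread narrows from the first fit to the last, and the 10 hydrolases all lie below 0 in the last, with GAA, CTSL and CTSB next to 0.

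The genes with the palindrome TCACGTGA in the promoter, shown above, did not stand on 1 side before the GC correction. Their log2 changes were 0.068 for LAMP1, 0.28 for MCOLN1, -0.047 for CTSA, 0.44 for GAA, -0.058 for ATP6V0D1 and -0.25 for ATG3, with a median of 0.011. None of them passed the test with 6 libraries, and neither did any other gene tested. Without replicate 3 the changes were 0.056, 0.087, -0.074, 0.21, -0.040 and -0.13 in the same order, with a median of 0.0077. After the GC correction of that fit the median was -0.11 and all 6 were below 0, where 41 of the 52 genes were. Of the 6, only CTSA was called after that correction (log2 -0.19, edgeR adjusted p 0.0368). The 12 genes with the core CACGTG had a median of -0.029 with 6 libraries, and the 30 with a promoter but no core 0.0078. Without replicate 3 these medians were -0.046 and -0.0013, and after the GC correction -0.15 and -0.046.

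Further genes of both pathways were counted from lists of 47 other lysosome and 32 other autophagy genes. With 6 libraries 0 were called in either list. Without replicate 3, 1 lysosome gene was higher (SGSH, a heparan sulfatase, log2 0.30) and 3 were lower, among them LIPA (acid lipase, -0.37) and the cholesterol carrier NPC2 (-0.26). The third was the V-ATPase gene ATP6V1G1 (-0.23). Over all genes 3.76% were higher and 3.29% lower in this fit. Of the autophagy list 1 was lower (TMEM41B, a lipid scramblase, -0.39) and 0 higher. After the GC correction without replicate 3, TMEM192 was higher (0.29) and 5 lysosome genes were lower, with ATP6V1F (-0.27), NPC2 (-0.26) and GLB1 (-0.23) lowest, and 0 of the other autophagy genes were called, where 1.98% of all genes were higher and 1.96% lower. In this correction 34 of the 47 other lysosome genes and 20 of the 32 other autophagy genes were below 0, against 50.5% of all genes tested.

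Ribo-seq held few reads on these genes. The 6 libraries had 210186 to 1002424 reads on genes, and the 53 genes had 398 reads in all, 0.0109% of 3638279, against 0.394% of the RNA-seq reads on genes. ATG13, a regulatory subunit of the ULK complex, had 261 of the 398 (65.6%). Its reads were 28, 53 and 58 in DMSO and 52, 32 and 38 in doxycycline. These are 88.3 ± 39.7 and 82.2 ± 38.6 CPM (SD, n = 3), here without TMM factors, and overlap. No other gene approached it: 18 of the 53 had 0 reads in all 6 libraries, and 29 had 1 to 9. These reads did not follow the RNA-seq reads. PSAP had 104367 RNA-seq reads and 1 Ribo-seq read, LAMP2 42125 and 0, and ATG13 24409 and 261. Whether the ATG13 reads lie on its coding sequence was not tested.

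Besides ATG13, 5 genes had 10 reads or more. ATG14, which directs the lipid kinase complex to the phagophore, had 3, 6 and 14 reads in DMSO and 3, 2 and 1 in doxycycline. BECN1, of the same complex, had 0, 1 and 4 and then 1, 7 and 1 reads. ATP6V0B had 4, 0 and 0 and then 0, 0 and 7, and NBR1 1, 0 and 4 and then 2, 1 and 2. MAP1LC3A, which had the lowest RNA-seq level of the 53, had 4, 7 and 0 reads in DMSO and 0 in each doxycycline library. A count of 0 allows 3 reads for counting error only. That is 14.3 CPM in the smallest library and 2.99 CPM in the largest, again without TMM factors.

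Of 1607 genes tested in Ribo-seq, 0 were called higher and 0 lower (0%), with 55 higher and 88 lower at an unadjusted p under 0.05 and 2 and 3 called by DESeq2's Wald test. Translation efficiency (TE), the Ribo-seq change beyond that of RNA-seq, was tested as the interaction of assay and treatment for 1334 genes, of which 0 were higher (0%, with 97 at an unadjusted p under 0.05 and 28 by DESeq2's Wald test) and 2 lower (0.15%, with 191 at an unadjusted p under 0.05 and 47 by the Wald test), and 0 of the lysosome and autophagy genes. For ATG13 the log2 change in TE was 0.14 (SE 0.77, edgeR adjusted p 0.953), and for ATG14 -1.58 (SE 0.79, adjusted p 0.265). The likelihood ratio test of edgeR called 85 of the 1334 genes higher and 131 lower in TE. Of the lysosome and autophagy genes it called only MAP1LC3A (lower, adjusted p 0.0431), which is named here after its value was seen. The 11 Ribo-seq reads of MAP1LC3A were all in DMSO, so it passed the filter of 10 reads through that group alone. Its direction was thus set by the filter, and nothing is concluded from this call.

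**Figure D5:**
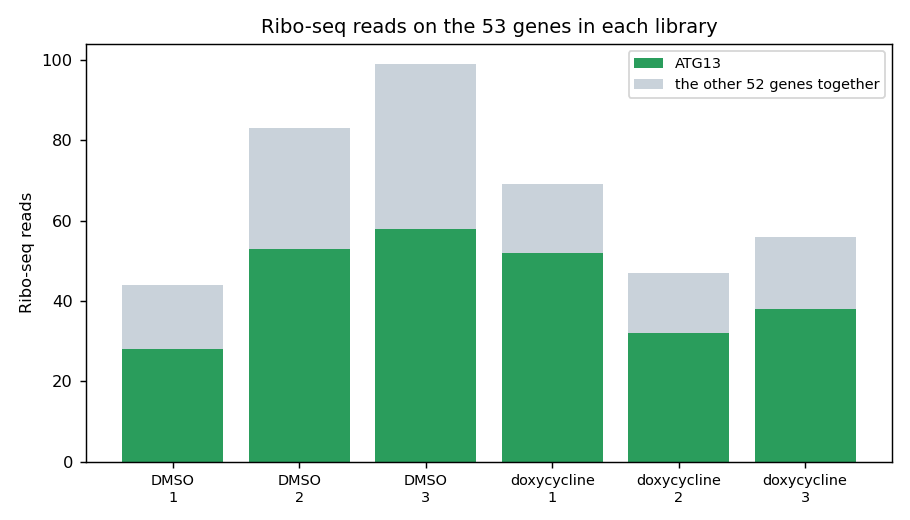
Ribo-seq reads on the 53 genes in each of the 6 libraries, with ATG13 (green) and the other 52 genes together (grey) stacked from 0. ATG13 has 28 to 58 reads per library, and the other 52 genes together have 15 to 41.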

How the data were processed

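RNA-seq and Ribo-seq counts of 293T4A cells were used as deposited, 3 libraries per assay and treatment, grouped by the sample labels. The authors trimmed the linker from footprint reads, removed ribosomal RNA, and used STAR for alignment. Reads with a single alignment that fell on exons were counted by the authors, and the deposited counts were not scaled. Their methods name GRCh38 and a GRCh37 annotation, and the submitters' processing notes GRCh37; use of strand in counting is not given in the sources used here, so reads of overlapping antisense genes cannot be told apart. The deposited table of TE also holds the authors' own p-values, q-values, ratios and log2 changes from RiboDiff, of which only gene symbols were used here.

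Genes were matched by symbol. Coordinates, exon lengths and GC content are from GENCODE 44 on GRCh38 (58207 of 58735 rows matched), and promoters from RefSeq. The 92 ERCC rows, viral rows and counters of unassigned reads were left out of library sizes. No 2 libraries held the same counts. Tests used edgeR 4.0.16 (quasi-likelihood, TMM, Benjamini-Hochberg at 0.05) in R 4.3.3. RNA-seq genes needed 10 reads in 3 libraries, Ribo-seq and TE genes 10 reads summed per assay. Alternatives were DESeq2 1.42.0 and its size factors, scaling by library totals, leaving out the filter or raising it to 60 reads, the likelihood ratio test, limma 3.58.1 (voom with sample weights), a replicate block and each library left out. The GC correction (lowess, span 0.3) and all alternatives to the fit without doxycycline replicate 3 were added after the data were seen. The tests were tried on simulated counts. Ratios per library used a pseudocount of 0.01 CPM.

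The members, lists and tests were chosen with earlier results of these data known. Genes given with a value per library are the transcription factors, SQSTM1, the ATG8 family, those called with or without doxycycline replicate 3, and up to 3 per role with the largest change among those without overlap. ATP6V0C, WIPI1 and the genes called after the GC correction were added after their values were seen.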

Additional observations from a re-analysis of the deposited data

How the results depend on the processing

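With 6 libraries, 0 of the 52 genes were called under both scalings other than TMM, without the filter or with 60 reads as its minimum, by the Wald and likelihood ratio tests, and after the GC correction. Over all genes DESeq2's Wald test called 1 higher and 2 lower and the likelihood ratio test 4 and 8. Voom with sample weights, which gave doxycycline replicate 3 a weight of 0.0831, called 3810 genes higher and 3724 lower, 6 and 17 of them among the 52. Leaving out 1 library gave 0 to 769 genes higher (0 to 1 of the 52) and 0 to 673 lower (0 to 2), the upper ends without doxycycline replicate 3. The cause was not tested.

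Alternatives to the fit without doxycycline replicate 3 (769 genes higher and 673 lower, 1 and 2 of the 52) were chosen after seeing the data. Library totals gave 1442 and 339 genes (3 and 1 of the 52), DESeq2's Wald test 1028 and 1040 (3 and 6), and the GC correction 405 and 402 (0 and 4). DESeq2's size factors, no filter, a minimum of 60 reads and voom called 0 of the 52 higher and 2 to 3 lower. Over all genes they called 635 to 763 higher and 574 to 776 lower. Leaving out a further library gave 2 to 1483 genes higher and 7 to 1549 lower, with 0 to 3 and 0 to 6 of the 52. After the GC correction, leaving out a further DMSO library gave 128 to 600 higher and 159 to 673 lower, with 2 to 8 of the 52 lower.

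Whether the replicate numbers pair the libraries could not be decided. Deviations from the group mean correlated at 0.46, -0.45 and 0.025 for numbers 1, 2 and 3, and not every library correlated best with its own number. Such deviations cancel within each group of 3 and doxycycline replicate 3 stood apart, so the values depend on each other. With a replicate block, 0 genes were called with 6 libraries, 2121 higher and 2220 lower without doxycycline replicate 3 (4 and 12 of the 52), and 0 lower in TE.

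Ribo-seq by DESeq2's Wald test gave 2 genes higher and 3 lower. For TE, no filter gave 3 and 4, the Wald test 28 and 47, the likelihood ratio test 85 and 131 (1 of the 53 lower), library totals 1 lower, and leaving out 1 library 0 to 1 higher and 0 to 1 lower. Library totals moved the median TE change of all genes from -0.42 to -0.63.

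The lysosome median with 6 libraries was 0.054 with library totals, -0.087 with no filter, -0.014 with voom, -0.10 with the GC correction and -0.063 to -0.030 with 1 library left out. The autophagy median was 0.075, -0.065, -0.082, -0.054 and -0.073 to -0.012. Their difference was 0.068 with voom, -0.049 with the GC correction and -0.020 to 0.028 with 1 library left out. Without doxycycline replicate 3, library totals gave 0.026 and -0.0024 and the GC correction -0.073 and -0.037, with a difference of -0.036. Leaving out a further library gave -0.051 to -0.018, -0.068 to -0.042 and a difference of 0.0065 to 0.047. The log2 change of EIF4EBP1 was 0.76 to 0.83 with 1 library left out, and without doxycycline replicate 3 it passed the test (adjusted p 1.08e-05).

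The GC correction turned the sign of the log2 change for 17 of the 52 genes with 6 libraries and for 18 without doxycycline replicate 3. Among the genes chosen by rule for values per library these were TFEB (-0.056, and -0.050 without doxycycline replicate 3), TFE3 (-0.053 and -0.028), CLCN7 (-0.0099, with 6 libraries), GAA (-0.027 and -0.0022), SQSTM1 (-0.0027, without replicate 3), ATG5 (0.016, with 6 libraries) and ATG12 (0.26 and 0.031). These values were all short of the threshold before and after. Ribo-seq gave 137 reads on the 52 genes other than ATG13, which limits any statement on their translation. A statement on ATG13 is limited too, because whether its reads lie on its coding sequence was not tested.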
